A study of Arabidopsis thaliana with 24 samples.

Results

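A group of 8 poorly characterised Arabidopsis thaliana genes that stand out under low oxygen was followed across 4 genotypes: AT5G10040 (HUP9), AT4G27450 (HUP54), AT3G10020, AT2G17850, AT1G24580, AT4G10265, AT3G29970 and AT2G27420. They are 8 of the 23929 genes measured, selected on their read counts in the Col libraries, where hypoxia was to raise them strongly, and on having no well-described function. RNA-seq libraries came from whole seedlings of the mutants vq1 and vq10, the double mutant vq1vq10 and the wild type Col-0 (Col), each under hypoxia (1% oxygen) and normoxia (21% oxygen), with 3 independent biological replicates in each of the 8 groups. All seedlings had grown for 14 days with 1% sucrose in 16 h light and 8 h dark, and on day 15 they spent 4 h in dim light at the given oxygen level. For every library the growth light is given as 150 µmol, the dim light as 30 µmol and the time of day as ZT 4 h (hours after lights on). The series title calls the mutants hypermorphic, and the sources used here do not name their alleles. Because the Col libraries chose the genes, the change in Col is given below as a description without a test, and tests are kept to the libraries of the mutants and to comparisons between genotypes.

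Plants sense oxygen mainly through the N-degron pathway, in which oxygen-dependent enzymes oxidise the amino terminus of group VII ethylene response factors and mark them for destruction. When oxygen runs low these factors persist, enter the nucleus and switch on a core set of genes for fermentation, sugar use and signalling, partly through a promoter motif that begins AAACCA. Many of the most responsive genes encode small proteins without a known role; HUP9 and HUP54 take their names from a set called hypoxia-responsive unknown proteins. VQ1 and VQ10, the genes mutated here, encode proteins with a VQ motif, a group known for partnering WRKY transcription factors, which in turn bind the W-box, whose core is TTGAC.

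The annotation gives most of the genes a family but no function. HUP9 encodes an uncharacterized protein of 87 residues, AT3G10020 a plant protein of 149 residues, and HUP54 a protein of 250 residues of the family named after aluminium-induced proteins with YGL and LRDR motifs. AT2G17850 (188 residues) carries a rhodanese domain, a fold found in sulfurtransferases and phosphatases, and AT1G24580 (131 residues) a RING/U-box domain, which is typical of ubiquitin ligases. AT4G10265 (83 residues) belongs to the wound-responsive family, AT3G29970 (87 residues) to the B12D family of small proteins first described in barley, and AT2G27420 (348 residues) to the cysteine proteinases. In a comparison of translated coding sequences AT3G10020 had 0 relatives in the genome at the E value of 1e-10 over at least 50% of its length, whereas AT2G27420 had 31.

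The bases ahead of the genes were read from TAIR10.1 to see which carry the hypoxia motif. Windows ran from 250 bases before to 50 bases from the first annotated base, counted as 0, and both strands were searched. AAACCA was present in the windows of 5 of the 8 genes (HUP9, HUP54, AT4G10265, AT3G29970 and AT2G27420), against 32.0% of 27443 protein-coding genes. The stretches that hold the matches upstream of an annotated start, and a short one from the start of AT4G10265, are shown here on each gene's own strand, with the matches on either strand in capitals.
HUP9, bases -250 to -101, plus strand, chr5:3143473-3143622: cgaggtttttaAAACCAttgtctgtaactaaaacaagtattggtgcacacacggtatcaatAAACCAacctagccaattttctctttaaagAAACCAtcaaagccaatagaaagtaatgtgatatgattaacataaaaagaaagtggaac
HUP54, bases -100 to -51, minus strand, chr4:13729053-13729102: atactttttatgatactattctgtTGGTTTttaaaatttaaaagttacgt
AT2G27420, bases -60 to -11, minus strand, chr2:11727665-11727714: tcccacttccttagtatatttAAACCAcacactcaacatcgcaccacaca
AT4G10265, bases 4 to 23, minus strand, chr4:6373644-6373663: AAACCAagaAAACCAGCAGC

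HUP9 was the member with 3 copies of AAACCA ahead of its start, at -239, -189 and -159. All 3 copies lie inside the span of TGA4, a gene on the opposite strand. Its gene model is partial and begins with the coding sequence, so these distances are from the start codon and the true transcription start is not given. HUP54 carried 1 copy on the opposite strand at -76, printed above as its reverse complement, and AT2G27420 copies at -39 and 42. In AT4G10265 and AT3G29970 the matches lay downstream of the annotated start. The longer form AAACCANNNGC overlaps the shorter one; it was found in the window of AT4G10265 (bases 13 to 23, the end of the 20-base stretch above) and in that of no other member, against 1.04% of all windows and 6 of 38 other genes of the hypoxia core response.

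AT4G10265 also has 2 further matches to the longer form at -977 to -967 and -847 to -837, in the 1066 bases that separate it from its divergent neighbour AT4G10270. The stretch between them, with the matches in capitals, ends 89 bases before AT4G10270. AT4G10270 is itself one of the 38 other core genes. The stretch lies in its window, so it is among the 6 of 38 with the longer form. With 1000 bases upstream the longer form was found in 3.64% of all genes and 10 of the 38. On the plus strand, which is the strand of AT4G10270, the stretch reads as follows.
AT4G10265 to AT4G10270, plus strand, chr4:6374504-6374644: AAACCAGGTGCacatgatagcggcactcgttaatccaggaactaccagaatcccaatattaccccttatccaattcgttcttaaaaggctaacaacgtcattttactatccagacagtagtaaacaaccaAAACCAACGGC

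Each of the other motifs was present in at most 3 of the 8 windows of 300 bases. The G-box CACGTG occurred in AT1G24580 alone of the 8 genes (7.68% of all windows), where it lies inside the end of the gene upstream, AT1G24570, the GCC-box GCCGCC, a site bound by ethylene response factors, in AT2G17850 alone (2.57%), and the evening element AATATCT of clock-regulated genes in 0 of 8 (11.5%). The W-box core TTGAC was present in 3 of 8, against 50.5% of all windows. AT3G10020 held 4 copies of it and no AAACCA; 3 of the copies lie inside the end of its upstream neighbour AT3G10030, which ends 93 bases away. With 1000 bases upstream both AAACCA and TTGAC were found in 8 of 8 genes, against 73.5% and 89.3% of all genes, so at that length neither separates the members. A match is a description of the letters and not of binding.

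**Figure D1:**
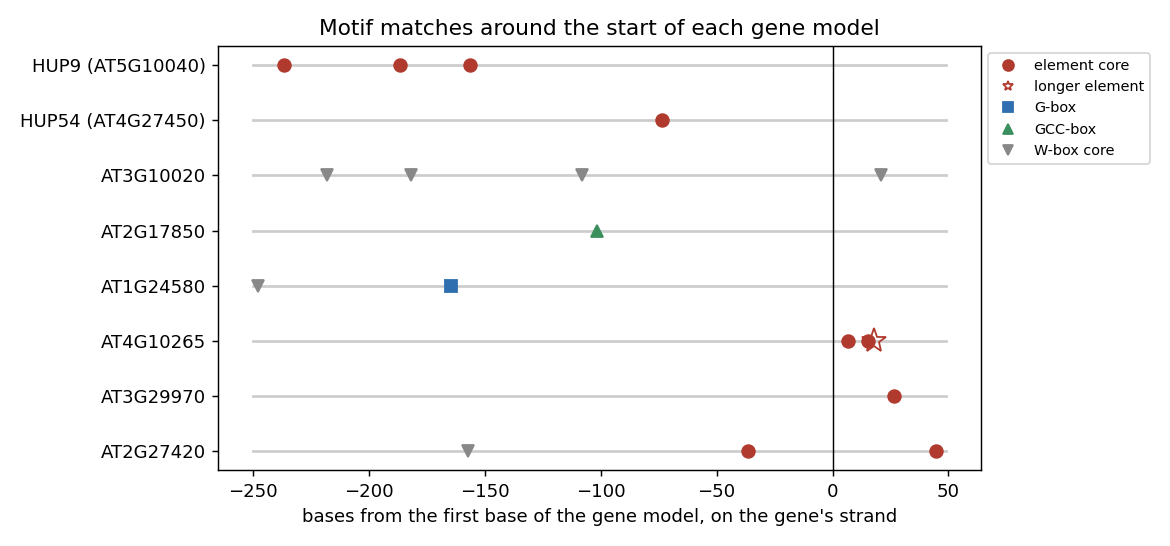
Matches to 5 motifs in the window from 250 bases before to 49 bases after the first annotated base (0) of each gene, in bases on the gene's strand; element core is AAACCA, and the open star is the longer form AAACCANNNGC, which contains a core match. HUP9 has 3 core matches upstream, AT4G10265 and AT3G29970 have theirs downstream of the start, and AT3G10020 has W-box cores only.

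The libraries held 21150025 to 22645178 reads in genes. Levels are given as CPM, counts scaled to libraries of 1000000 reads after TMM correction, or as the deposited TPM where genes are compared with each other, since TPM corrects for length. VQ10 transcript checked the vq10 labels: under hypoxia it averaged 1.39 ± 0.31 CPM in vq10 and 1.27 ± 0.23 CPM in vq1vq10, against 0.225 ± 0.13 CPM in Col (SD, n = 3 each). VQ1 transcript did not check the vq1 labels, with 3.60 ± 0.59 CPM in vq1 and 3.15 ± 0.94 CPM in vq1vq10, against 4.2 ± 1.19 CPM in Col under normoxia, so vq1 and vq1vq10 name libraries by their labels. Summed markers of shoot tissue (RBCS1A, RCA and LHCB1.1) ran from 41313 to 58111 CPM in hypoxic libraries against 25136 to 32515 CPM in normoxic ones, those of roots (PYK10, EXPA7 and COBL9) from 1340 to 1970 CPM against 1708 to 2697 CPM, and the flower genes AG, AP3 and PI together stayed under 1 CPM in every library. The root markers changed unequally with hypoxia in vq1, vq10 and vq1vq10. On the log2 scale EXPA7 changed by -2.94, -3.55 and -3.57 and COBL9 by -2.70, -2.36 and -2.72, but PYK10 by -0.22, -0.63 and -0.53. The part of these tissue markers in the hypoxia changes below was not tested, and in whole seedlings a change in the number of cells of a type and a change in RNA per cell cannot be told apart.

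HUP9 was close to absent under normoxia and present in every hypoxic library. It had 7.81, 9.15 and 11.3 CPM in hypoxic vq1, 12.1, 13.8 and 10.2 CPM in vq10, 17.1, 17.1 and 13.5 CPM in vq1vq10 and 13.2, 14.2 and 16.7 CPM in Col. In normoxic libraries it had 0 reads in all 9 of the mutants and 1 read in the 3 of Col. Hypoxic and normoxic libraries were far apart in each genotype. Counted against a floor of 3 reads over a group, HUP9 was at least 224-fold higher under hypoxia in vq1, 286-fold in vq10 and 377-fold in vq1vq10; in Col the ratio was 1071 with a 95% counting interval of 192 to 42357, which covers counting error only, as do all such intervals here. HUP9 and 5 other members (AT2G17850, AT1G24580, AT4G10265, AT3G29970 and AT2G27420) passed the filter on low counts through their hypoxic libraries alone, so their changes with hypoxia had to be large and are given as descriptions, with no p.

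HUP9 lies wholly inside another gene. Its 435 bases on the plus strand of chromosome 5 (3143723 to 3144157) fall within the span of TGA4, a bZIP transcription factor gene on the minus strand. TGA4 had 17.7 to 23.4 CPM in the normoxic libraries while HUP9 had at most 1 read there. Under hypoxia TGA4 fell, by 0.44, 0.43 and 0.40 on the log2 scale in vq1, vq10 and vq1vq10 (edgeR adjusted p = 0.0041, 0.0045 and 0.0076). The sources used here do not say how the counting treated strand; the levels of the 2 genes moved in opposite directions. AT5G10050, the next gene 42 bases downstream, encodes a Rossmann-fold protein and rose by 1.23, 1.73 and 1.84 (adjusted p = 3.4e-08, 1.4e-10 and 5.5e-11). The only relative of HUP9, AT5G65207 with 45.7% identity, rose by 2.26, 1.89 and 2.30 in vq1, vq10 and vq1vq10 (edgeR adjusted p = 7.3e-10, 1e-08 and 6.3e-10).

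HUP54 was the most abundant member and one with a solid normoxic level. In hypoxic libraries it had 1972, 1814 and 1822 CPM in vq1, 1961, 1869 and 1803 CPM in vq10, 2073, 1941 and 1834 CPM in vq1vq10 and 2021, 2086 and 1758 CPM in Col. In normoxic libraries it had 272, 272 and 214 CPM in vq1, 230, 275 and 217 CPM in vq10, 211, 290 and 272 CPM in vq1vq10 and 227, 193 and 225 CPM in Col. The lowest hypoxic library stood several-fold above the highest normoxic one in each genotype. The log2 change was 2.89 ± 0.13 in vq1, 2.96 ± 0.13 in vq10 and 2.92 ± 0.13 in vq1vq10 (SE, n = 3 each; edgeR adjusted p = 1.6e-13, 1.1e-13 and 1.2e-13), and 3.19 in Col; these are increases of 7.40, 7.80, 7.57 and 9.10-fold. By mean TPM it ranked 56, 59 and 47 of 23929 genes in hypoxic vq1, vq10 and vq1vq10 and 56 in Col, against 389, 409, 382 and 472 under normoxia in the same order of genotypes.

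HUP54 has annotated neighbours on both sides and 4 relatives. The last 71 bases of HUP54 on chromosome 4 (13727370 to 13729002, minus strand, 4 exons) overlap the end of PORB, a protochlorophyllide oxidoreductase gene of chlorophyll synthesis on the other strand. PORB fell under hypoxia by 0.81, 0.87 and 0.92 on the log2 scale in vq1, vq10 and vq1vq10 (edgeR adjusted p = 0.00019, 9.3e-05 and 5.1e-05). The changes of the 4 related genes of the aluminium-induced family ran from -0.14 to 0.37 over the mutants (edgeR adjusted p of 0.068 or more). The closest, AT3G15450 with 71.3% identity, had values of 0.18, -0.03 and -0.14 in vq1, vq10 and vq1vq10 (edgeR adjusted p = 0.37, 0.89 and 0.50), and AILP1, with 48.1% identity, of 0.19, 0.20 and 0.37. CBSX5, a gene of the CBS domain family on the other side of HUP54, had 0.35, 0.49 and 0.18 (edgeR adjusted p = 0.18, 0.065 and 0.52). In Col, as a description with no test, the log2 change was 0.44 for AT3G15450 (interval 0.14 to 0.75), 0.54 for AILP1 (0.22 to 0.86) and 0.75 for CBSX5 (0.32 to 1.17), each with all hypoxic libraries above all normoxic ones, and -0.83 for PORB.

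AT3G10020, a gene of 1 exon on chromosome 3 (3090806 to 3091922, minus strand), did not meet the description of a strongly raised gene. It had 353, 324 and 336 CPM in hypoxic vq1, 335, 210 and 298 CPM in vq10, 294, 278 and 237 CPM in vq1vq10 and 339, 351 and 305 CPM in Col. In normoxic libraries it had 246, 274 and 211 CPM in vq1, 192, 243 and 244 CPM in vq10, 202, 268 and 248 CPM in vq1vq10 and 218, 162 and 245 CPM in Col. Hypoxic libraries lay above all normoxic ones in vq1 and in Col, and the ranges overlapped in vq10 and vq1vq10. In Col the increase was 1.59-fold (log2 0.67, interval 0.34 to 1.00), which ranked 2237 of 20110 genes tested.

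In the mutants AT3G10020 passed the test in vq1, with an increase of 0.47 ± 0.16 on the log2 scale (edgeR adjusted p = 0.025). Its change was 0.31 in vq10 (interval -0.02 to 0.64, adjusted p = 0.13) and 0.17 in vq1vq10 (-0.16 to 0.50, adjusted p = 0.44). The responses of the mutants were not shown to differ from each other or from Col: vq1vq10 minus Col, which subtracts the libraries that chose the gene and is tilted by them, was -0.50 (-0.96 to -0.03, edgeR adjusted p = 0.58), and vq1vq10 minus vq1 was -0.30 (-0.76 to 0.17, adjusted p = 1). The call in vq1 was lost with library totals in place of TMM factors (0.29, adjusted p = 0.12) and without hypoxic vq1 replicate 1 or 3 (adjusted p = 0.074 and 0.056) or normoxic vq1 replicate 1 or 3 (0.052 and 0.14). The change in vq10 passed without hypoxic vq10 replicate 2, the library at 210 CPM (0.47, adjusted p = 0.021).

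AT2G17850, the rhodanese gene on chromosome 2 (7760005 to 7760839, minus strand, 3 exons), had the highest TPM after HUP54 and AT3G10020. It had 27.1, 28.3 and 30.7 CPM in hypoxic vq1, 33.1, 51.8 and 33.2 CPM in vq10, 37.7, 44.3 and 39.0 CPM in vq1vq10 and 26.5, 48.4 and 38.7 CPM in Col. Normoxic libraries had 0, 4 and 2 reads in vq1, 7, 0 and 1 in vq10, 3, 0 and 0 in vq1vq10 and 5, 2 and 1 in Col. It had few or no reads without hypoxia, and the conditions did not overlap. Its log2 change was 8.32 in vq1, 8.38 in vq10 and 8.35 in Col, over 6, 8 and 8 normoxic reads in all. Over so few reads the fitted SE can be narrower than counting error, and it is not given. Its ratio in vq1vq10 was 955 (counting interval 326 to 4634). Its 3 relatives, the sulfurtransferase gene STR18, AT2G21045 and the senescence gene SEN1, changed by -0.46 to 0.06 on the log2 scale over the mutants. SEN1 fell in vq10 (-0.46, edgeR adjusted p = 0.048). AT2G21045, with 33.5% identity, changed by -0.02, -0.40 and -0.21 in vq1, vq10 and vq1vq10 (edgeR adjusted p = 0.95, 0.064 and 0.35).

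AT1G24580, the RING/U-box gene on chromosome 1 (8709941 to 8710824, plus strand, 1 exon), had 22.6, 13 and 10.7 CPM in hypoxic vq1, 16.8, 12.6 and 22.7 CPM in vq10, 9.10, 9.33 and 11.4 CPM in vq1vq10 and 14.9, 14.4 and 17.7 CPM in Col. Normoxic libraries had 1 to 8 reads each. All hypoxic libraries lay above all normoxic ones, and those of vq1vq10 held the lowest hypoxic values together with 1 of vq1. The log2 change was 6.72 in vq1, 6.23 in vq10 and 5.43 in vq1vq10, against 6.92 in Col, over 10, 16, 16 and 9 normoxic reads in all. Over so few reads the fitted SE can be narrower than counting error, and it is not given. The neighbour AT1G24575, a gene annotated as DEAD-box RNA helicase-like that lies 22 bases away on the other strand, rose by 1.69 in vq10 and 0.91 in vq1vq10 (edgeR adjusted p = 0.00051 and 0.032), with a change of 0.24 in vq1 (adjusted p = 0.63). Among 10 related genes 6 could be tested. In vq1, vq10 and vq1vq10, 1, 0 and 2 of the 6 rose, where 19.1%, 19.5% and 17.7% of all genes tested rose. In the same mutants 1, 0 and 1 of the 6 fell, where 16.5%, 18.2% and 15.7% of all genes fell. The called ones are named here after their values were seen. RHA2A, a RING-H2 gene, rose by 0.68 and 0.65 in vq1 and vq1vq10 (adjusted p = 0.022 and 0.027), AT1G63840 rose by 0.58 in vq1vq10 (adjusted p = 0.0025), and BRH1, a brassinosteroid-responsive RING-H2 gene, fell by 0.60 and 0.59 in vq1 and vq1vq10 (adjusted p = 0.017 and 0.020). The closest relative, AT1G67856 with 69.9% identity, had too few reads to be tested. The next closest, ATL8 with 38.2% identity, changed by -0.18, -0.23 and -0.39 in vq1, vq10 and vq1vq10 (edgeR adjusted p = 0.56, 0.44 and 0.19).

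AT4G10265 of the wound-responsive family, on chromosome 4 (6373008 to 6373667, minus strand, 1 exon), had 7.34, 7.12 and 8.49 CPM in hypoxic vq1, 8.09, 9.90 and 8.59 CPM in vq10, 8.52, 10.2 and 9.32 CPM in vq1vq10 and 8.91, 12.7 and 14.3 CPM in Col. Normoxic libraries had 0 to 6 reads each. The increase was 6.95 on the log2 scale in vq1, 6.30 in vq1vq10 and 6.54 in Col, over 4, 8 and 9 normoxic reads in all. Over so few reads the fitted SE can be narrower than counting error, and it is not given. In vq10 the ratio was 316 (counting interval 87.0 to 2616). Its only relative is the divergent neighbour AT4G10270, with 65.6% identity, which lies beyond the stretch with both motif matches shown above. AT4G10270 rose by 6.24, 6.32 and 5.59 in vq1, vq10 and vq1vq10 (adjusted p = 1.2e-10, 9.2e-11 and 1.9e-10). The neighbour had more transcript per length, with 132, 116 and 154 TPM in hypoxic vq1, against 15.9, 15.9 and 19.1 TPM for AT4G10265 in the same libraries.

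AT3G29970, the B12D gene on chromosome 3 (11745197 to 11746570, plus strand, 3 exons), varied most between replicates. It had 2.67, 4.29 and 1.85 CPM in hypoxic vq1, 2.73, 4.48 and 3.75 CPM in vq10, 11.4, 5.40 and 3.83 CPM in vq1vq10 and 1.78, 3.60 and 5.42 CPM in Col, with 0 to 4 reads in each normoxic library. One vq1vq10 library stood apart at 11.4 CPM, and even the lowest hypoxic library lay above all normoxic ones. The ratio of hypoxia to normoxia was 209 in vq1 (counting interval 37.0 to 8292), 262 in vq10 (46.5 to 10380) and 164 in vq1vq10 (55.8 to 798), and the log2 change in Col was 5.90 (interval 4.38 to 7.42). Col had 4 normoxic reads in all, and 1 of its 3 libraries held every one of them. The related B12D gene AT3G48140, with 48.8% identity, fell slightly, by 0.25 and 0.31 on the log2 scale in vq1 and vq1vq10 (edgeR adjusted p = 0.030 and 0.0077), with a change of -0.18 in vq10 (adjusted p = 0.11).

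AT2G27420, the cysteine proteinase gene on chromosome 2 (11726134 to 11727654, minus strand, 2 exons), was the lowest per length. It had 4.26, 5.96 and 5.49 CPM in hypoxic vq1, 6.26, 5.84 and 6.04 CPM in vq10, 5.04, 2.38 and 5.03 CPM in vq1vq10 and 5.03, 3.20 and 4.05 CPM in Col. Normoxic libraries had 0 to 2 reads each, and 0 in all 3 of Col. The conditions did not overlap in any genotype. The ratio was 373 in vq1 (counting interval 66.5 to 14783), 214 in vq10 (58.9 to 1777) and 148 in vq1vq10 (40.4 to 1224), and the gene was at least 98.7-fold higher in Col. Of its 31 relatives, 25 were tested; 3, 2 and 1 rose and 6, 10 and 7 fell in vq1, vq10 and vq1vq10, where 19.1%, 19.5% and 17.7% of all genes tested rose and 16.5%, 18.2% and 15.7% fell.

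**Figure D2:**
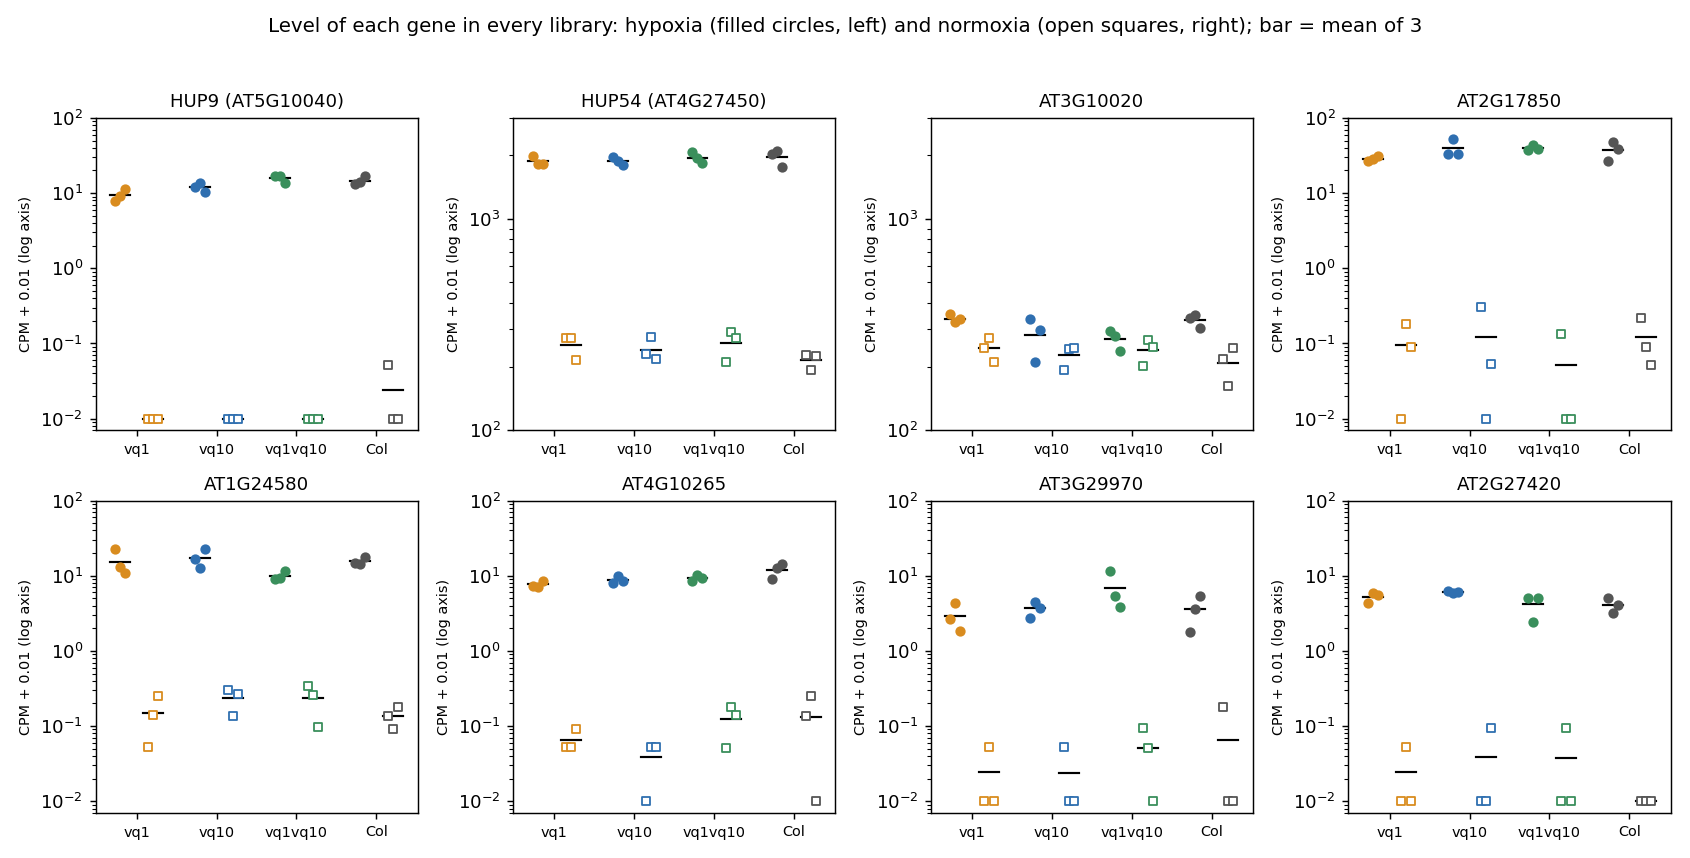
CPM plus 0.01 on a log axis for each gene in all 24 libraries, by genotype, with hypoxia as filled circles on the left, normoxia as open squares on the right and a bar at the mean of 3 libraries; HUP54 and AT3G10020 have an axis of their own. HUP9 had 0 reads in the 9 normoxic mutant libraries, and AT3G10020 overlapped between conditions in vq10 and vq1vq10.

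Over the 8 genes, edgeR called 8 higher under hypoxia in vq1, where 19.1% of the 20110 genes tested were called higher, 7 in vq10 (19.5%) and 7 in vq1vq10 (17.7%), with AT3G10020 as the exception in both. All 8 passed the filter on low counts, but 6 of them only through their hypoxic libraries, having fewer than 10 reads in every normoxic one, so these counts describe the choice of genes and support nothing more. The libraries of the conditions were apart, with hypoxia higher, for 8, 7 and 7 genes, against 25.5%, 23.7% and 24.4% of all genes. The median log2 change of the 8 was 7.33 in vq1, 7.88 in vq10 and 6.75 in vq1vq10, and 6.58 in Col, with genes of 0 to 3 normoxic reads taken at their bound or ratio (7.08, 7.51, 6.62 and 6.73 as fitted), beside a median of -0.01 for all genes. Together the 8 took 0.198% to 0.244% of the reads in hypoxic libraries and 0.0394% to 0.0593% in normoxic ones, most of it from HUP54 and AT3G10020.

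**Figure D3:**
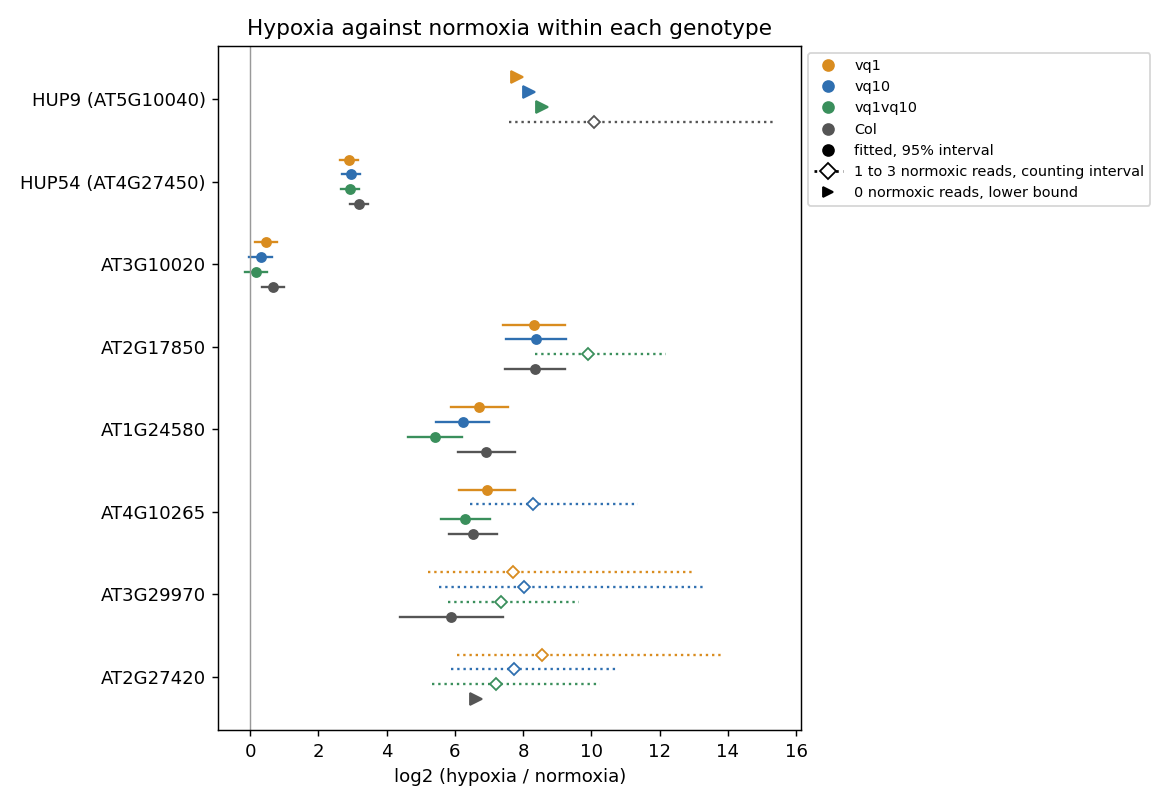
Log2 ratio of hypoxia to normoxia for each gene in vq1, vq10, vq1vq10 and Col: filled circles are fitted changes with 95% intervals, open diamonds are ratios over 1 to 3 normoxic reads with counting intervals, and triangles are lower bounds over 0 normoxic reads. HUP54 sits between 2.89 and 3.19 in the 4 genotypes, and AT3G10020 between 0.17 and 0.67. For AT2G17850, AT1G24580, AT4G10265 and AT3G29970 the fitted intervals rest on few normoxic reads and can be narrower than counting error.

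The 38 other genes listed for the hypoxia core response moved with the members. In each mutant 36 of them rose and 0 fell, with median log2 changes of 3.82 in vq1, 3.81 in vq10 and 3.62 in vq1vq10, and 3.61 in Col. Of all genes tested 19.1%, 19.5% and 17.7% rose and 16.5%, 18.2% and 15.7% fell in vq1, vq10 and vq1vq10. The list is one of hypoxia genes, chosen with earlier results of these data known, so its counts describe that choice. AT1G35140 and AT5G45960 were the 2 that did not pass. Their summed level ran from 4695 to 6748 CPM in hypoxic libraries against 628 to 752 CPM in normoxic ones.

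The order of levels under hypoxia was nearly the same in all genotypes on the TPM scale. Mean TPM of HUP54 was 1886 in vq1, 1847 in vq10, 2121 in vq1vq10 and 1911 in Col, followed by AT3G10020 with 515, 403, 447 and 471 and by AT2G17850 with 81.9, 111, 124 and 106. HUP9 came next in each genotype, with 33.9, 42.3, 61.6 and 52.1 TPM, and AT2G27420 last, with 5.33, 5.98, 4.51 and 4.06 TPM. The library ranges of neighbours in this order did not overlap except as follows. AT1G24580 and AT4G10265 overlapped in vq1, vq10 and Col (AT1G24580 at 24.7, 27.1 and 24.7 TPM, AT4G10265 at 17, 19.3 and 26.2 TPM), HUP9 and AT1G24580 overlapped in vq1, and AT3G29970 and AT4G10265 overlapped in vq1vq10. In vq1vq10 AT3G29970 followed HUP9 at 25.3 ± 14.5 TPM, ahead of AT1G24580 at 17.2 ± 1.7 TPM (SD, n = 3 each). The library ranges of AT3G29970 and AT1G24580 overlapped there, at 13.9 to 41.7 TPM and 15.8 to 19.1 TPM.

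**Figure D4:**
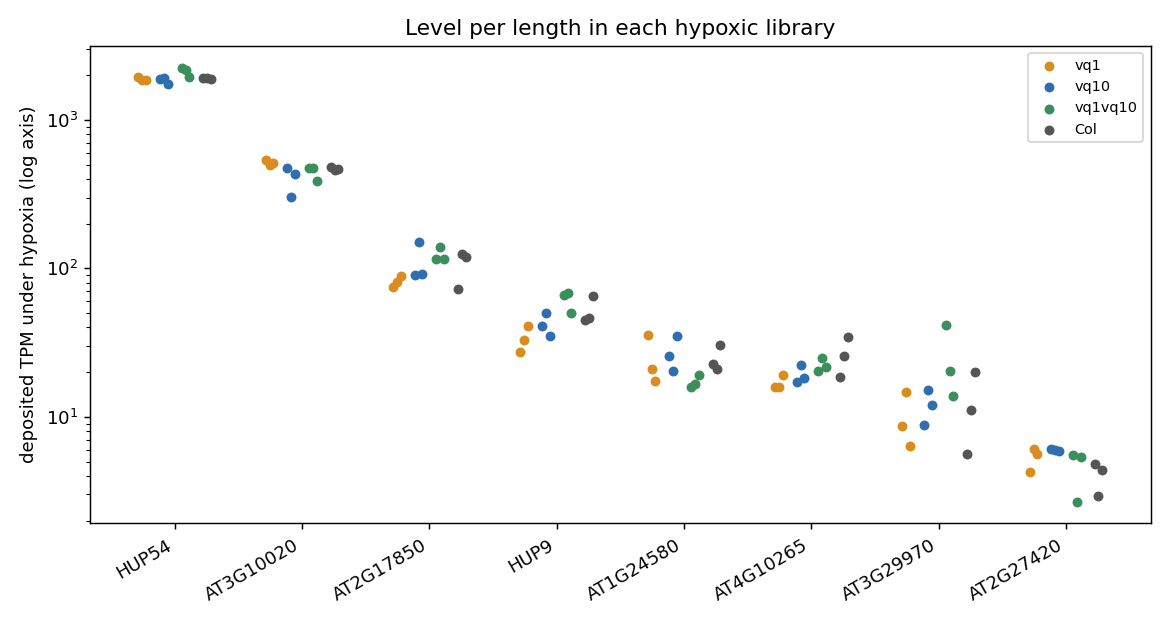
Deposited TPM on a log axis for each gene in the 12 hypoxic libraries, with 3 points for each of vq1, vq10, vq1vq10 and Col. The genes span from 2.68 TPM for AT2G27420 to 2252 TPM for HUP54, and AT1G24580, AT4G10265 and AT3G29970 share a range.

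Under normoxia AT3G10020 was the more abundant of the 2 genes that were expressed there. It ranked between 239 and 279 by mean TPM in the 4 genotypes, above HUP54 with ranks of 382 to 472, whereas under hypoxia HUP54 ranked above it in each genotype. The other 6 genes ranked no higher than 19636 of 23929 under normoxia.

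The question of whether the mutants carry altered levels of these genes under hypoxia was put to each mutant against Col. The 3 comparisons share the Col libraries, and those libraries chose the genes, which tilts each difference. edgeR called 0 of the 8 genes in vq1 (0.0845% of all genes called), 0 in vq10 (0.0646%) and 0 in vq1vq10 (0.0845%); 2, 1 and 2 members reached an unadjusted p under 0.05, beside 1100, 1709 and 1895 of all 20110 genes (5.47%, 8.50% and 9.42%), and DESeq2 called 0 members in each as well. HUP54 differed from Col by -0.06 in vq1 (interval -0.31 to 0.18), -0.06 in vq10 (-0.31 to 0.19) and 0.00 in vq1vq10 (-0.25 to 0.24), the narrowest intervals of the 8.

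In vq1 HUP9 averaged 9.43 ± 1.78 CPM and Col 14.7 ± 1.83 CPM (SD, n = 3 each), a log2 difference of -0.64 (interval -1.01 to -0.27, edgeR adjusted p = 0.59). AT4G10265 averaged 7.65 ± 0.73 CPM in vq1 and 12 ± 2.79 CPM in Col, a difference of -0.65 (-1.07 to -0.23, adjusted p = 0.72). For both genes all 3 vq1 libraries lay below all 3 of Col, as did 3.72% of all genes, and neither passed the test. In vq10 AT4G10265 differed by -0.44 (-0.86 to -0.02, adjusted p = 0.57), and AT2G27420 lay above Col in all libraries, as did 4.75% of all genes, with a difference of 0.56 (-0.05 to 1.17, adjusted p = 0.61).

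In vq1vq10 AT1G24580 averaged 9.93 ± 1.24 CPM, against 15.7 ± 1.76 CPM in Col (SD, n = 3 each), a log2 difference of -0.66 (interval -1.15 to -0.17, edgeR adjusted p = 0.42). AT3G10020 differed by -0.30 (-0.63 to 0.03, adjusted p = 0.57), and for both genes the vq1vq10 libraries lay below those of Col, as did 6.80% of all genes. AT3G29970 averaged 6.88 ± 4.01 CPM in vq1vq10 and 3.60 ± 1.82 CPM in Col, a difference of 0.93 (0.07 to 1.78, adjusted p = 0.49) with overlapping libraries. HUP9 differed by 0.11 (-0.24 to 0.47).

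Comparisons among the mutants are free of the libraries that chose the genes. In vq1vq10 minus vq1 under hypoxia edgeR called 0 of the 8 (0.114% of all genes called), with 4 at an unadjusted p under 0.05, beside 2032 of all 20110 genes (10.1%). HUP9 averaged 15.9 ± 2.11 CPM in vq1vq10 and 9.43 ± 1.78 CPM in vq1 (SD, n = 3 each), with all libraries of vq1vq10 above those of vq1, and the log2 difference was 0.75 (interval 0.39 to 1.12, edgeR adjusted p = 0.15). DESeq2 called this difference (0.76, adjusted p = 0.020).

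Other members moved unequally between vq1vq10 and vq1. AT2G17850 averaged 40.4 ± 3.49 CPM in vq1vq10 and 28.7 ± 1.82 CPM in vq1, a log2 difference of 0.49 (0.03 to 0.95, edgeR adjusted p = 0.45) that passed in a fit of the compared groups alone (0.50, adjusted p = 0.043). AT3G29970 differed by 1.23 (0.36 to 2.10, adjusted p = 0.33) and AT1G24580 by -0.64 (-1.13 to -0.15, adjusted p = 0.37). HUP9, AT2G17850 and AT4G10265 had vq1vq10 libraries above all of vq1, as did 8.21% of all genes, and AT3G10020 below, as did 10.5%. The summed level of the other core genes moved the same way as HUP9, at 6398 to 6748 CPM in hypoxic vq1vq10 and 4695 to 5578 CPM in vq1; its part in these differences was not tested.

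Between vq1vq10 and vq10 under hypoxia edgeR called 0 of the 8 and 0.0% of all genes (1852 genes, 3 of them members, at an unadjusted p under 0.05; 20 genes and 0 members by DESeq2). AT1G24580 averaged 9.93 ± 1.24 CPM in vq1vq10 and 17.4 ± 5.09 CPM in vq10, with all vq1vq10 libraries lower, as for 7.31% of all genes, and a log2 difference of -0.80 (-1.29 to -0.32, edgeR adjusted p = 0.35). AT2G27420 lay lower in all vq1vq10 libraries as well (-0.54, interval -1.15 to 0.07), and HUP9 differed by 0.40 (0.04 to 0.76, adjusted p = 0.51). Between vq10 and vq1, edgeR called 0 of the 8 (0.269% of all genes called; 3262 genes, 0 of them members, at an unadjusted p under 0.05, and 0 members by DESeq2), and AT2G17850 was higher in all vq10 libraries, as were 9.73% of all genes, with a difference of 0.46 (-0.00 to 0.91, edgeR adjusted p = 0.31).

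**Figure D5:**
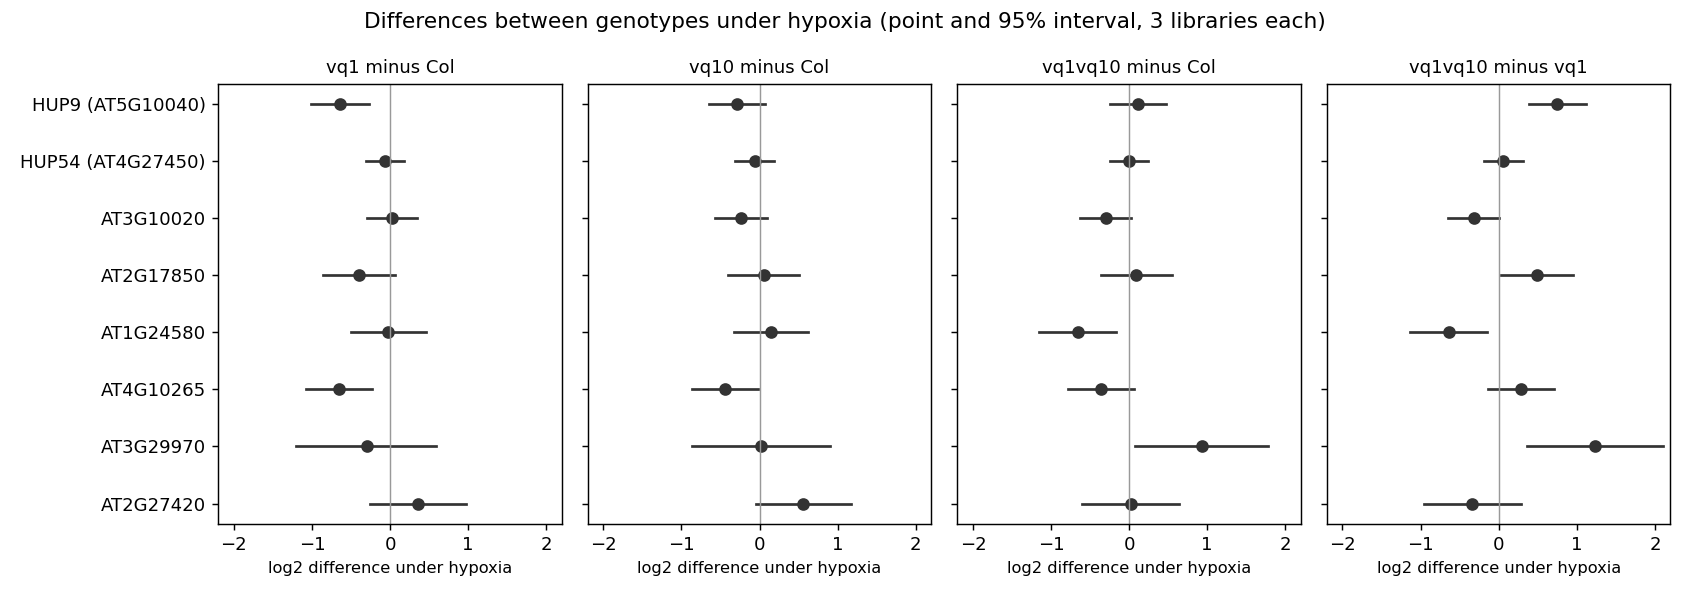
Log2 differences between genotypes under hypoxia with 95% intervals for vq1, vq10 and vq1vq10 minus Col and for vq1vq10 minus vq1, 3 libraries a group. HUP54 lies within 0.06 of 0 in each panel, HUP9 is at -0.64 in vq1 minus Col and at 0.75 in vq1vq10 minus vq1, and AT1G24580 is at -0.66 and -0.64 in the panels of vq1vq10.

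Under normoxia edgeR called 0 of the 8 genes in any of the 6 comparisons between genotypes (0.0796%, 0.0597% and 0.0646% of all genes in vq1, vq10 and vq1vq10 against Col, and 0.104%, 0.119% and 0.0% in vq10 against vq1, vq1vq10 against vq1 and vq1vq10 against vq10); 0, 1, 1, 0, 0 and 0 members had an unadjusted p under 0.05, beside 1451, 713, 869, 634, 876 and 467 of all genes, and DESeq2 called 0 in each. For the 6 genes with fewer than 10 reads a library, a fall or a small difference under normoxia was not detectable at this depth. The differences from Col under normoxia, and those between the responses of a mutant and Col, subtract the Col libraries that chose the genes and are tilted by that choice as well. For HUP54 vq1vq10 minus Col under normoxia was 0.26 on the log2 scale (0.01 to 0.51, edgeR adjusted p = 1). The hypoxia response of HUP54 differed from that of Col by -0.30 in vq1 (-0.65 to 0.05), -0.22 in vq10 (-0.57 to 0.13) and -0.26 in vq1vq10 (-0.62 to 0.09), with edgeR adjusted p = 1, 0.72 and 0.68. Over all 6 comparisons of responses edgeR called 0 members and 0.0% of all genes, with 1 member, AT3G10020 in vq1vq10 against Col, at an unadjusted p under 0.05, beside 682 to 1654 of all genes, and DESeq2 called 0 members.

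Replicate spread set the members apart. Pooled over the 4 genotypes under hypoxia, the coefficient of variation was 6.27% for HUP54, 13.4% for AT3G10020, 14.3% for AT4G10265, 15.1% for HUP9, 20.6% for AT2G17850, 23.2% for AT2G27420, 26.5% for AT1G24580 and 45.6% for AT3G29970. The members also did not deviate from their group means together in the 12 hypoxic libraries. AT4G10265 (r = 0.88), HUP9 (0.78) and AT2G17850 (0.78) deviated with the summed level of the other core genes, AT3G29970 less so (0.43), and AT2G27420 (-0.18), HUP54 (-0.34), AT1G24580 (-0.43) and AT3G10020 (-0.51) not in that direction. That sum includes AT4G10270, the relative and neighbour of AT4G10265. With the core gene ADH1 alone, r was 0.58 for AT4G10265, 0.75 for HUP9, 0.31 for AT2G17850 and 0.42 for AT3G29970. It was -0.08 for AT2G27420, -0.29 for HUP54, -0.20 for AT1G24580 and -0.26 for AT3G10020. AT2G17850 and AT4G10265 deviated together (0.81), HUP9 and AT1G24580 oppositely (-0.75). These values describe 12 libraries that share scaling and depth, and they carry no test.

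Across all 24 libraries the genes most like each member in log2 CPM had r of 0.945 or more, in data where the libraries fall into 2 oxygen levels. HUP9 and AT4G10265 were the members whose 2 nearest genes were in the listed core response. HUP9 was most like AT3G10040 (r = 0.996), known as HRA1, a trihelix repressor of the hypoxia response, and AT5G66985 (0.994). AT4G10265 was most like ADH1, the alcohol dehydrogenase of fermentation, and AT5G66985 (0.993 each). AT2G17850 was most like ASP2, an aspartate aminotransferase gene (0.993), and SRO4 (0.992), and AT3G29970 like ASP2 and HUP9 (0.981 each).

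HUP54 was most like TIL, the temperature-induced lipocalin gene (r = 0.995), and AT1G03610 (0.994), AT1G24580 like the squalene epoxidase gene SQE3 and AT5G44410 (0.989 each), and AT2G27420 like the cytochrome P450 gene CYP706A6 (0.991) and AT3G56290 (0.989). AT3G10020 had the least close match, AT4G29905 at 0.95 and AT2G32150 at 0.945.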

How the data were processed

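RNA-seq was measured in 24 libraries of whole seedlings, grouped by genotype and oxygen from the labels. HISAT2 2.0.4, DESeq2 and TAIR10 are named in the submitters' processing notes, but not their roles, and the sources used here do not state the counter, how it treated strand or a filter. Per the file headers, read counts, TPM and FPKM are listed for 23929 genes in each file. The deposited read counts are estimated counts from the authors' counting (between 525 and 581 genes of a library have a fractional value) and were rounded; the counts of the 8 genes were whole in all 24 libraries. The deposited TPM and the deposited FPKM were used without a test, for levels between genes.

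One edgeR 4.0.16 (R 4.3.3) quasi-likelihood fit with a mean per group, TMM factors and filterByExpr (minimum count 10) covered 20110 genes, and Benjamini-Hochberg adjusted p under 0.05 over all of them was called; 21 contrasts were tested, and the fit was tested on simulated data. SE was taken from the log2 change and its F statistic, intervals are 95%, and log2 CPM used a prior count of 2. Over few normoxic reads such SE and intervals can be narrower than counting error. A floor of 3 reads over a group stood in for 0, and counting intervals are exact. Replicates differed by a chi-square of at least 5.97 per degree of freedom, so no library was a duplicate. The members, lists and tests were chosen with earlier results of these data known. Named genes are the members, VQ1, VQ10, annotated neighbours with values, the 2 closest relatives of a member, its 2 most similar genes of average log2 CPM of at least 1, and core genes not called; RHA2A, BRH1, AT1G63840 and SEN1 were named after their values were seen. Positions, sequences and relatives (blastp 2.17.0 on coding sequences translated from the genome) are from RefSeq TAIR10.1. Replicate numbers were taken from the titles; alternatives were RLE factors, library totals, no filter, DESeq2 1.42.0, a fit of the compared groups alone, the replicate number as a block, each library left out, and FPKM for TPM.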

Additional observations from a re-analysis of the deposited data

How the results depend on the processing

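The 8, 7 and 7 members called under hypoxia in vq1, vq10 and vq1vq10 became 7, 7 and 7 with library totals, which moved the median of all genes to -0.20, -0.24 and -0.12, and were 8, 7 and 7 with RLE factors, no filter, DESeq2 and the compared groups alone. Leaving out 1 library gave 7 to 8, 7 to 8 and 7 to 7; AT3G10020 made each difference, with a log2 change of 0.36 to 0.55 in vq1, 0.17 to 0.47 in vq10 and 0.05 to 0.25 in vq1vq10. Of the other comparisons only vq1vq10 against vq1 under hypoxia gained a member, 1 with DESeq2 (HUP9) and 1 in the compared groups alone (AT2G17850), against 0, and HUP9's difference was 0.64 to 0.91 with a library left out (edgeR adjusted p from 0.12 to 0.41); the cause was not tested. Of the log2 changes 394 kept their side of the threshold, 5 lost a call, 3 gained one and 0 reversed.

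Replicate numbers were not taken to pair the libraries, since not every same-numbered pair deviated together with r over 0.1. Same-numbered libraries of a condition were still more alike, with a median r of 0.124 under hypoxia (11 of 18 pairs over 0.1) and 0.102 under normoxia (9 of 18), against -0.055 (1 of 36) and -0.061 (8 of 36) for differently numbered ones, and 12 of 12 hypoxic and 8 of 12 normoxic libraries deviated most with their own number; across oxygen levels the median r was -0.087 (0 of 12). With the replicate block 8, 7 and 7 members were called under hypoxia, and all genes called were 7149, 7645 and 6755, against 7166, 7576 and 6725. Between genotypes under hypoxia the block fit called 0 members. All genes called there were 14, 13 and 22 in vq1, vq10 and vq1vq10 against Col. They were 49 in vq10 and 17 in vq1vq10 against vq1, and 0 in vq1vq10 against vq10. The block holds 1 effect per replicate number over both oxygen levels, so likeness confined to 1 level was not modelled.

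Counts over all genes moved more. Under hypoxia vq1 against Col had 17 (26 with DESeq2, 3 in the compared groups alone, 10 to 137 with a library left out, 137 without Col replicate 3), vq10 against Col 13 (25 with DESeq2, 6 alone, 10 to 14 with a library left out), vq1vq10 against Col 17 (47 with DESeq2, 10 to 338, 338 without Col replicate 3), vq10 against vq1 54 (297 with DESeq2, 26 alone, 13 to 251, with 13 to 18 without any of the other 5 libraries and 251 without vq10 replicate 1), vq1vq10 against vq1 23 (45 with library totals, 81 with DESeq2, 116 alone, 13 to 19 with a library left out) and vq1vq10 against vq10 0 (20 with DESeq2). Under normoxia vq1 against Col had 16 (49 with DESeq2), vq10 against vq1 21 (13 to 17 with a library left out) and vq1vq10 against vq1 24 (15 to 20), and the response of vq1vq10 against Col 0 (2 with DESeq2, 1 alone). The order of members by FPKM was that by TPM. Fewer than 10 normoxic reads a library limit what can be said of 6 members there.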
